A study of Rattus norvegicus with 6 samples.

Results

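The insulin-like growth factors (IGFs), their receptors and their binding proteins were examined in vascular smooth muscle (VSM) cells of young and old rats. The 10 genes Igf1, Igf2, Igf1r, Igf2r, Igfbp2, Igfbp3, Igfbp4, Igfbp5, Igfbp6 and Igfbp7 were looked up by gene symbol among the 14475 genes of the count table. Of these, 9 were matched and are described here, and Igfbp2 was not analysed here.

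IGF-1 and IGF-2 are secreted peptides related to insulin. They signal for growth, survival and protein synthesis through the IGF-1 receptor, a tyrosine kinase that passes the signal to the PI3K-Akt-mTOR relay. The IGF-2 receptor, which is also the cation-independent mannose 6-phosphate receptor, takes IGF-2 up for degradation and sorts lysosomal enzymes. Binding proteins hold IGFs outside the cell and can block or prolong their action, and proteases such as pappalysin release the peptide again. VSM cells are known to make IGF-1 and several of the binding proteins and to respond to IGF-1 by growth and migration.

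VSM cells were grown out of the soleus feed arteries (SFA), which supply the soleus muscle of the hindlimb, from male Fisher 344 rats aged 4 months (young, 3 libraries) or 24 months (old, 3 libraries), with no treatment named for either group. All cultures were kept in a medium with fetal bovine serum, so the cells of both groups were exposed to serum growth factors, and passage number and cell density were not stated. Each group stood for 3 rats, and the polyadenylated RNA of the cultured cells was sequenced. Levels are given as CPM (counts-per-million), the authors' gene counts scaled to the normalized library size, and library totals ran from 44235674 to 59700887 counts. CPM is not corrected for transcript length, so levels are compared between libraries and not between genes. A difference is given as the log2 fold change of old over young with its standard error (SE), and a differentially expressed gene (DEG) needed an adjusted p under 0.05 together with a log2 fold change of 1 or more in either direction. With 3 libraries in each group, an exact permutation test of a single value cannot give a two-sided p below 0.1.

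The labelled cell type was checked against smooth muscle markers, of which 8 of 8 were measured and had counts in each library. Their summed level was lower in the old libraries, from 5716 to 8506 CPM, than in the young libraries, from 15096 to 26525 CPM, and all 8 markers were lower at an unadjusted p under 0.05 in edgeR. Acta2, which encodes smooth muscle α-actin, was at 4972, 7585 and 10381 CPM in young libraries 1, 2 and 3 and at 2201, 1126 and 1422 CPM in old libraries 1, 2 and 3. Of 9 fibroblast markers, 8 were measured and summed to between 667 and 1041 CPM in young and between 1011 and 1888 CPM in old libraries. Of these 8, 3 were higher in old cells at an unadjusted p under 0.05 in edgeR, against 11.2% of all genes. Only 2 of the 8 had no overlap between the groups, as 29.2% of all genes did. By direction alone, 7 were higher in old cells and 1 was lower. The lower one was Mfap5, with means of 607 CPM in young and 544 CPM in old cells (log2 fold change -0.16). Endothelial markers (4 of 8 measured) summed to at most 18.2 CPM and macrophage markers (3 of 8 measured) to at most 16.8 CPM in any library. Schwann cell markers (4 of 6 measured) summed to 13.7 to 75.7 CPM in young and 55.1 to 86.6 CPM in old libraries, most of it from S100b. Among 13 skeletal muscle markers, 4 were measured, with sums of 86.6 to 264 CPM in young and 28.7 to 46.6 CPM in old libraries, most of it in young libraries from the actin gene Acta1. In such bulk libraries, fewer cells of a type and less RNA per cell cannot be told apart.

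In old VSM cells, 6 of the 9 IGF genes were higher and 3 were lower than in young VSM cells. Over all genes, 52.0% were higher in old cells. The genes that stood apart were the receptors, with Igf1r lower and Igf2r higher, and a pair of binding proteins, with Igfbp4 higher and Igfbp5 lower. For these 4 of 9 genes the 3 old libraries lay all above or all below the 3 young libraries, which was the case for 29.2% of all genes. By the quasi-likelihood test of edgeR, 0 of the 9 genes were DEGs, against 0.00691% of all genes, and the lowest adjusted p was 0.0700. An unadjusted p under 0.05 in edgeR was reached by 4 of the 9 genes, against 22.6% of all genes. Of these, 2 were higher in old (11.2% of all genes) and 2 were lower (11.5% of all genes). The DESeq2 Wald test, the test used by the study, called 2 of the 9 genes as DEGs (Igfbp4 and Igfbp5), against 5.68% of the genes with an adjusted p. Without the fold threshold, the DESeq2 adjusted p was under 0.05 for 4 of the 9 genes, against 12.5%. limma-voom called 0 of the 9, with 4 at an unadjusted p under 0.05. Over all 14475 genes, limma-voom called 0, with 3347 at an unadjusted p under 0.05. The median log2 fold change of the 9 genes was 0.55, compared with 0.02 over all genes.

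**Figure D1:**
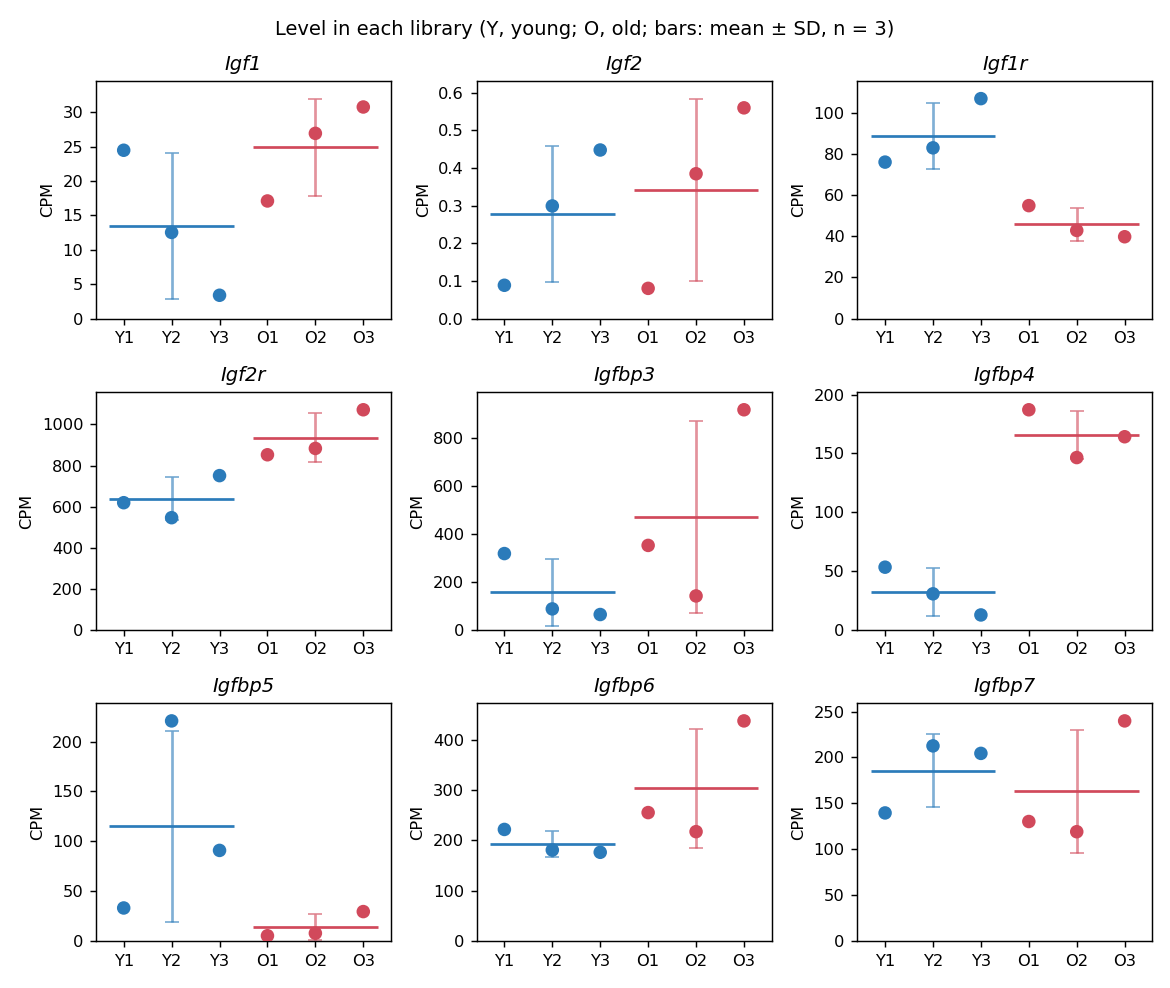
CPM of each of the 9 IGF genes (vertical axes, each on its own scale) in young (Y1 to Y3) and old (O1 to O3) libraries, with each point a library, each line a group mean and each bar the SD of 3 libraries. The old points lie below all young points for Igf1r and Igfbp5 and above them for Igf2r and Igfbp4, and the groups overlap in the other 5 genes.

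Of the ligands, Igf1 (ENSRNOG00000004517) encodes IGF-1. It was at 24.5, 12.5 and 3.40 CPM in young libraries 1, 2 and 3 and at 17.1, 26.9 and 30.8 CPM in old libraries 1, 2 and 3. Old library 1 lay below young library 1, so the groups overlapped, and the 3 young libraries spread more widely than the old ones. The means were 13.5 ± 10.6 CPM for young and 24.9 ± 7.05 CPM for old cells (SD, n = 3 each). On the log2 scale the fold change was 0.89 (SE 0.64), with an adjusted p of 0.432 in edgeR and 0.361 in DESeq2, neither under 0.05. It ran from 0.43 without young library 3 to 1.64 without young library 1.

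Igf2 (ENSRNOG00000020369), the gene of the fetal growth factor IGF-2 and imprinted in rodents, had few counts. There were 4, 18 and 22 counts in young and 4, 20 and 30 counts in old libraries 1, 2 and 3. The highest and the lowest library of each group thus fell in the same range, with means of 0.279 ± 0.180 CPM for young and 0.342 ± 0.243 CPM for old cells (SD, n = 3 each). No difference between the groups was detected (log2 fold change 0.29, SE 0.79, edgeR adjusted p = 0.847). The log2 fold change turned to -0.12 without young library 1 and to -0.26 without old library 3.

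The receptors differed in opposite directions. Igf1r (ENSRNOG00000014187), which encodes the signaling receptor of both ligands, was at 76.0, 82.9 and 107 CPM in young libraries 1, 2 and 3 and at 54.8, 42.8 and 39.7 CPM in old libraries 1, 2 and 3. Every old library was below every young library, and the group means of 88.5 ± 16.2 and 45.8 ± 7.98 CPM (SD, n = 3 each) differed 1.93-fold. Its log2 fold change of -0.95 (SE 0.18) had the smallest SE relative to its size among the 9 genes. Its adjusted p was 0.0700 in edgeR and 0.0690 in limma-voom, and Igf1r fell in the DESeq2 Wald test (adjusted p = 0.000284), short of the fold threshold. Leaving out 1 library at a time gave log2 fold changes from -1.10 to -0.79. Without old library 1, Igf1r was a DEG in edgeR (adjusted p = 0.0315), but the edgeR DEGs over all 14475 genes then rose from 1 to 732. Without young library 2 its edgeR adjusted p was 0.238. DESeq2 also called it a DEG without old library 1, young library 1 or young library 2, along with 1377, 737 and 551 DEGs over all genes.

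Igf2r (ENSRNOG00000014997), the receptor that clears IGF-2 and carries mannose 6-phosphate tagged enzymes to lysosomes, was at 619, 546 and 751 CPM in young libraries 1, 2 and 3. In old libraries 1, 2 and 3 it was at 853, 883 and 1072 CPM, so that all old libraries were above all young ones. The means were 639 ± 104 CPM in young and 936 ± 119 CPM in old cells (SD, n = 3 each), a 1.47-fold difference. This gave a log2 fold change of 0.55 (SE 0.17, adjusted p = 0.145 in edgeR), and Igf2r rose in the DESeq2 Wald test (adjusted p = 0.0317), below the fold threshold. It stayed between 0.44 and 0.68 with any 1 library left out, but DESeq2 then kept an adjusted p under 0.05 only without young library 3 or without old library 1.

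The receptors can also be set against each other within a library, where depth cancels out. The ratio of Igf2r to Igf1r counts was 8.15, 6.59 and 7.03 in young libraries 1, 2 and 3 and 15.5, 20.6 and 27.0 in old libraries 1, 2 and 3. The old ratios were higher by 2.84-fold when the log2 ratios were averaged. That they do not overlap follows from the levels of the genes already given. The exact permutation test therefore had to give its lowest two-sided p, 0.1, and adds no support. This ratio and the ratio of Igfbp4 to Igfbp5 given later were picked after the values of the genes had been seen. Insr, which encodes the insulin receptor, a close relative of the IGF-1 receptor that can pair with it, was measured alongside. Its level was 20.2, 18.3 and 19.8 CPM in young and 24.0, 23.4 and 27.3 CPM in old libraries 1, 2 and 3, with no overlap. The difference was smaller than for Igf1r and in the other direction (log2 fold change 0.36, SE 0.10, adjusted p = 0.133 in edgeR), and Insr rose in the DESeq2 Wald test (adjusted p = 0.0466).

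The 5′ flank of Igf2r is shown because 1 short sequence occurs there on both sides of a GC box. The printed 150 bases end at the base before the RefSeq gene start (RefSeq, build GRCr8, chr1:50526728-50526877, plus strand), and the capitals mark matches to TCACGTGA, an E-box with its flanking bases, and to GGGCGG, the GC box.
Igf2r: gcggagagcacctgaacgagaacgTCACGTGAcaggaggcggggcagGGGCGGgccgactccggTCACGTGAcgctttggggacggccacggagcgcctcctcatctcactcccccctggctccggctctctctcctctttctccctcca
The 250 bases before the start of each gene were searched on both strands for the GC box GGGCGG, the TATA box TATAAA, the E-box CACGTG with and without the flanks of TCACGTGA, the forkhead core GTAAACA, the AP-1 site TGACTCA and the CArG box, where each match to the longer E-box is also a match to the shorter. TCACGTGA started 126 and 86 bases before the start of Igf2r, and 0.6573% of the 33469 RefSeq promoters held it at least once. GGGCGG lay 152 and 103 bases before the start, the first of them beginning just outside the printed stretch, and was held by 30.47% of all promoters. Igf1r had CACGTG 31 bases before its start, as 5.593% of promoters did at any position, and GGGCGG 184 bases before. These matches describe letters only, and no binding was measured.

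Among the binding proteins, Igfbp4 was higher and Igfbp5 lower in old VSM cells, while Igfbp3, Igfbp6 and Igfbp7 overlapped between the groups. Igfbp4 (ENSRNOG00000010635) encodes a binding protein known mostly as an inhibitor of IGF action. Its level was 53.3, 30.6 and 12.6 CPM in young libraries 1, 2 and 3 and 187, 147 and 164 CPM in old libraries 1, 2 and 3. The lowest old library was thus well above the highest young one, and the old libraries lay closer together on a relative scale. The means were 32.2 ± 20.4 CPM in young and 166 ± 20.4 CPM in old cells (SD, n = 3 each), 5.16-fold apart. A log2 fold change of 2.37 (SE 0.49) had an adjusted p of 0.0801 in edgeR and 0.0693 in limma-voom. Igfbp4 rose in the DESeq2 Wald test (adjusted p = 1.97e-05), and DESeq2 called it a DEG with any 1 library left out. In edgeR the log2 fold change then ran from 1.99 to 2.94.

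Igfbp5 (ENSRNOG00000017206), a binding protein that attaches to the extracellular matrix and has been described both to enhance and to inhibit IGF action, had the largest difference of the 9 genes. It was at 33.1, 221 and 90.8 CPM in young libraries 1, 2 and 3 and at 5.19, 7.71 and 29.4 CPM in old libraries 1, 2 and 3. The groups did not overlap, but the lowest young library and the highest old library were close, and the libraries of each group were spread several-fold. Means of 115 ± 96.1 CPM in young and 14.1 ± 13.3 CPM in old cells (SD, n = 3 each) differed 8.14-fold. The log2 fold change was -3.02 (SE 0.92, adjusted p = 0.145 in edgeR), and Igfbp5 fell in the DESeq2 Wald test (adjusted p = 0.0362). This call depended on which library was left out. In edgeR the log2 fold change was -2.14 without young library 2 and -4.15 without old library 3, and DESeq2 kept the call only without young library 1 or without old library 3.

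Within a library, Igfbp4 had 1.61, 0.139 and 0.139 counts for each Igfbp5 count in young libraries 1, 2 and 3. The same ratio was 36.1, 18.99 and 5.58 in old libraries 1, 2 and 3. The mean difference was 5.64 on the log2 scale, and the lack of overlap again follows from the levels of the 2 genes. Young library 1 and old library 3 came nearest to each other.

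The promoters of both genes are printed because they carry the largest differences among the 9 genes. Each stretch is the 150 bases before the RefSeq gene start in GRCr8, for Igfbp4 at chr10:84491321-84491470 on the plus strand and for Igfbp5 at chr9:81914188-81914337 on the minus strand, read 5′ to 3′ of the gene. Capitals mark a match to TATAAA, the TATA box.
Igfbp4: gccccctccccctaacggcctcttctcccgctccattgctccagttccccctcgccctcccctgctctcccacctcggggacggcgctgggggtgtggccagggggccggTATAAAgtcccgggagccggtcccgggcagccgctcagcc
Igfbp5: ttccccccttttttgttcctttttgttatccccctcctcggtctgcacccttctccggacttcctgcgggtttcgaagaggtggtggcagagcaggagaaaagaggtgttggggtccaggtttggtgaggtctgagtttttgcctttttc
Igfbp4 had TATAAA 40 bases before its start, and 12.93% of all promoters held these letters somewhere in the 250 bases. GC bases made up 73.33% of the Igfbp4 stretch and 52.67% of the Igfbp5 stretch, against 68% for Igf2r. None of the motifs searched was found in the windows of Igfbp5, Igfbp3 or Igf1, which says only that these letters are not in those windows. Of the remaining genes, Igfbp6 had GTAAACA 221 bases before its start, as in 3.215% of promoters, and a CArG box was held by 1.497% of promoters. For Igf2, RefSeq gave a pair of starts, of which 1 had a CArG box 110 bases before it and the other GGGCGG 129 bases before it. Igfbp7 had 4 matches to GGGCGG. The AP-1 letters TGACTCA were found in none of the 9 genes and were held by 4.046% of all promoters.

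Igfbp3 (ENSRNOG00000061910), the gene of the main IGF carrier in blood, was at 318, 87.1 and 63.6 CPM in young libraries 1, 2 and 3 and at 352, 141 and 917 CPM in old libraries 1, 2 and 3. Old library 2 lay below young library 1, and old library 3 was far above all others. The means of 156 ± 140 CPM in young and 470 ± 401 CPM in old cells (SD, n = 3 each) differed 3.01-fold. The log2 fold change was 1.59 (SE 0.85), with an adjusted p of 0.308 in edgeR and 0.329 in DESeq2, neither under 0.05. It was 0.66 without old library 3 and 2.64 without young library 1, in which case DESeq2 gave an adjusted p of 0.00473 and 737 DEGs over all genes.

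Igfbp6 (ENSRNOG00000010977), which encodes a binding protein that prefers IGF-2, was at 222, 181 and 176 CPM in young and at 255, 217 and 438 CPM in old libraries 1, 2 and 3. The groups overlapped by a narrow margin, since old library 2 fell just under young library 1. The log2 fold change was 0.65 (SE 0.27, adjusted p = 0.223 in edgeR and 0.134 in DESeq2), and it was 0.29 without old library 3. Without old library 2, the DESeq2 adjusted p was 0.0494. Igfbp7 (ENSRNOG00000002050), a related protein of low IGF affinity found in vessel walls, was at 140, 213 and 204 CPM in young and at 130, 119 and 240 CPM in old libraries 1, 2 and 3. Its groups overlapped over most of their range, with a log2 fold change of -0.19 (SE 0.31, edgeR adjusted p = 0.736). Old library 3 thus had the highest level of Igfbp3, Igfbp6 and Igfbp7 and also the highest level of Igfbp5 among the old libraries.

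**Figure D2:**
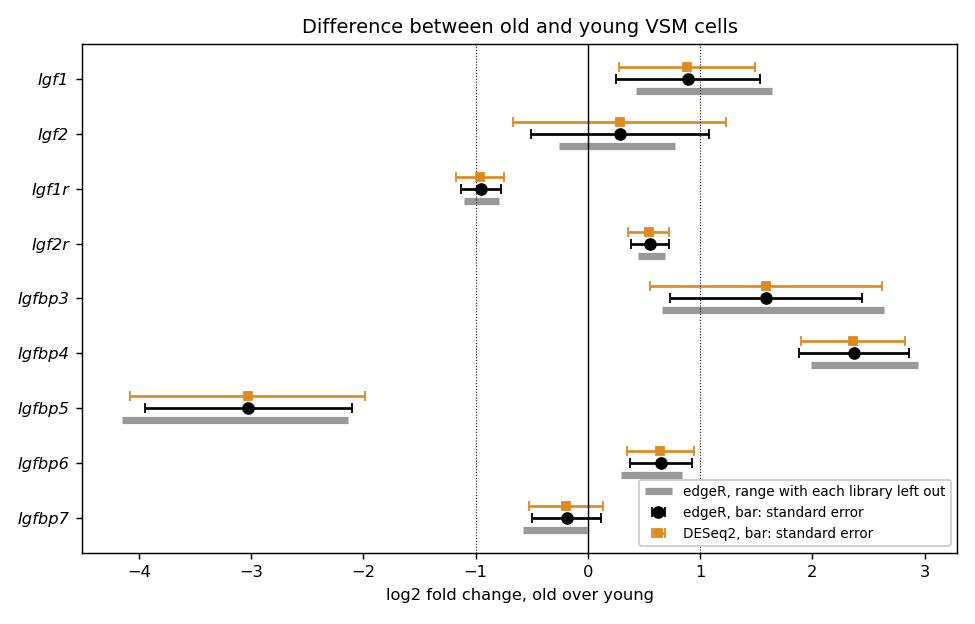
Log2 fold change of old over young (horizontal axis) for the 9 IGF genes in edgeR (black) and DESeq2 (orange), with bars for the SE and grey bands for the edgeR range when each library was left out; dotted lines mark the fold threshold of 1. Igfbp4 at 2.37 and Igfbp5 at -3.02 lie furthest from 0, Igf1r at -0.95 has the narrowest band relative to its size, and only the band of Igf2 crosses 0.

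The IGF genes were set beside the marker genes, because both varied among libraries of the same age. Young library 3 had the highest Acta2 (10381 CPM) and the highest Igf1r, and the lowest Igf1, Igfbp3 and Igfbp4 of all 6 libraries. Young library 1 had the lowest Acta2 of the young libraries (4972 CPM) and, among them, the highest Igf1, Igfbp3 and Igfbp4 and the lowest Igf1r and Igfbp5. The fibroblast markers did not share 1 order among the young libraries. Pdgfra, Lum and Pi16 were highest in library 1 and lowest in library 3, whereas Dpt and Cd34 were highest in library 3 and Mfap5 in library 2. Lum, which encodes the matrix proteoglycan lumican, was at 101, 13.6 and 6.90 CPM in young libraries 1, 2 and 3 and at 70.9, 255 and 165 CPM in old libraries 1, 2 and 3. Dcn, the gene of the proteoglycan decorin, was at 19.9, 1.16 and 2.28 CPM in young and at 26.0, 411 and 119 CPM in old libraries 1, 2 and 3. Among the old libraries, Lum and Dcn were highest in library 2, while Igfbp4 was highest in library 1 and Igf1 and Igfbp3 in library 3. The part of cell makeup or of the smooth muscle state in the IGF gene differences was not tested.

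**Figure D3:**
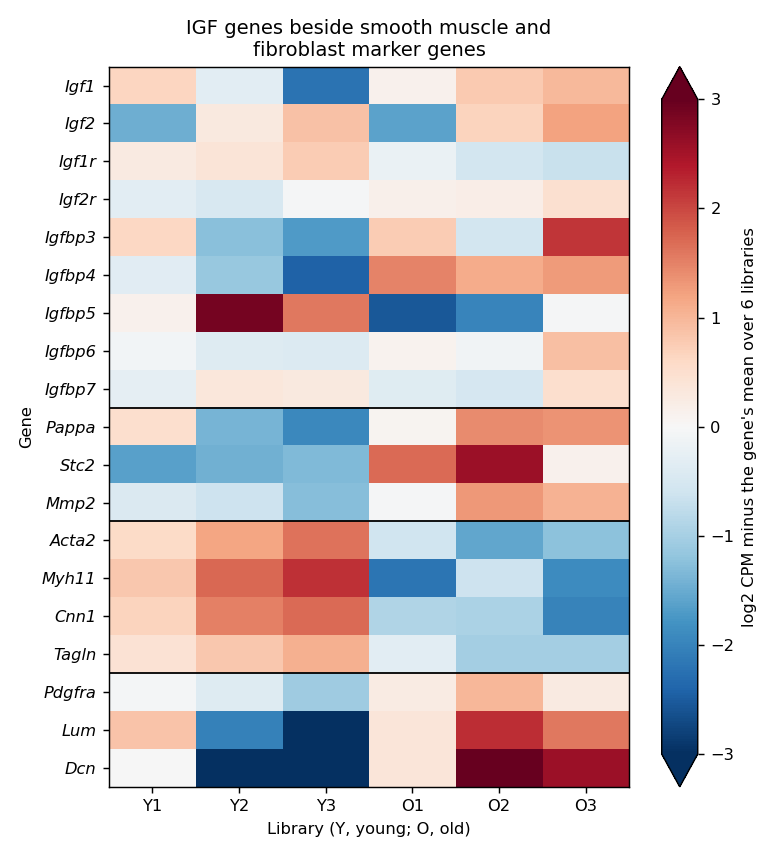
Level of the 9 IGF genes, 3 genes of IGF binding protein processing, 4 smooth muscle markers and 3 fibroblast markers in each library (columns), as log2 CPM minus the mean of the gene over the 6 libraries (color, cut at -3 and 3). Igfbp4, Stc2 and Pdgfra are red in all old columns and the smooth muscle markers blue. Igf1, Igfbp3 and Lum are red in Y1, and Igfbp3 is blue in O2. Of the 8 measured fibroblast markers, 7 were higher in old cells by direction, 3 of them at an unadjusted p under 0.05 in edgeR. Mfap5, not shown, was lower.

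Genes that process the binding proteins had some of the largest differences of the pathway. All 8 of 8 listed proteases and their inhibitors were measured, of which 2 were higher and 1 was lower at an unadjusted p under 0.05 in edgeR, where 11.2% of all genes were higher and 11.5% lower. The median log2 fold change of the 8 genes was 0.79. Stc2 encodes stanniocalcin-2, an inhibitor of pappalysins. It was at 2.79, 3.16 and 3.42 CPM in young libraries 1, 2 and 3 and at 28.0, 50.9 and 9.31 CPM in old libraries 1, 2 and 3. The young libraries were nearly alike, and each old library was above them, by a different amount. The log2 fold change of 3.23 (SE 0.60) had an adjusted p of 0.0658 in edgeR, and Stc2 rose in the DESeq2 Wald test (adjusted p = 2.35e-07).

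Pappa, the gene of pappalysin-1, which cleaves IGFBP-4, was at 194, 51.8 and 35.6 CPM in young libraries 1, 2 and 3 and at 144, 367 and 349 CPM in old libraries 1, 2 and 3. Young library 1 exceeded old library 1, as it did for Igf1 and Lum (log2 fold change 1.61, SE 0.70, adjusted p = 0.234 in edgeR and 0.0741 in DESeq2). Counts of Igfbp4 relative to Pappa did not separate the groups (log2 difference 0.70, exact permutation test, two-sided p = 0.4). Pappa2, whose product cleaves IGFBP-3 and IGFBP-5, was at 8.95, 8.25 and 52.9 CPM in young and at 4.26, 6.71 and 7.13 CPM in old libraries 1, 2 and 3. It fell in the DESeq2 Wald test (adjusted p = 0.0414; log2 fold change -1.95, SE 0.77 and adjusted p = 0.208 in edgeR), but the edgeR log2 fold change was -0.51 without young library 3.

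Mmp2, the gene of a secreted matrix protease that can also cut binding proteins, was at 1430, 1250 and 789 CPM in young libraries 1, 2 and 3. In old libraries 1, 2 and 3 it was at 1877, 4720 and 3973 CPM, above all young values. Mmp2 rose in the DESeq2 Wald test (adjusted p = 0.000812), with a log2 fold change of 1.61 (SE 0.40) and an adjusted p of 0.108 in edgeR. Without old library 1, when edgeR called 732 DEGs over all genes, Mmp2 was among them (adjusted p = 0.0299) and Stc2 passed by a narrow margin (adjusted p = 0.04996). The other proteases and inhibitors did not pass either test. Htra1 and Adam12, which encode proteases of binding proteins, had log2 fold changes of 0.19 and 0.18, and the stanniocalcin gene Stc1 had -0.53, from means of 3.00 CPM in young and 2.08 CPM in old cells. Htra3, a protease gene related to Htra1, had 1.39 from 1 library, at 1.77, 2.36 and 2.50 CPM in young and at 2.77, 1.89 and 12.7 CPM in old libraries 1, 2 and 3.

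Of 7 other genes of the family, 3 were measured, and Igfbp1, Igfbpl1, Igfals and Insrr were not analysed here. Beside Insr, these were Lrp1, the gene of a large endocytic receptor that binds IGFBP-3, and Tmem219, which encodes a membrane receptor of IGFBP-3. Lrp1 was at 1536, 1542 and 1134 CPM in young and at 1922, 3541 and 2189 CPM in old libraries 1, 2 and 3, with no overlap. Lrp1 rose in the DESeq2 Wald test (adjusted p = 0.0243) with a log2 fold change of 0.86 (SE 0.28, adjusted p = 0.157) in edgeR, and the log2 fold change of Tmem219 was 0.06.

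Of the 3 genes of RNA-binding proteins named for the Igf2 message, Igf2bp3 had the largest difference relative to its SE. It was at 5.14, 2.04 and 9.91 CPM in young and at 2.49, 0.904 and 1.10 CPM in old libraries 1, 2 and 3. The groups overlapped, since young library 2 lay under old library 1. Igf2bp3 fell in the DESeq2 Wald test (adjusted p = 0.0276; log2 fold change -1.92, SE 0.66 and adjusted p = 0.172 in edgeR). Igf2bp1 was under 0.5 CPM in all libraries but young library 3, where it was at 4.48 CPM, and Igf2bp2 had a log2 fold change of -0.01. The locus neighbor H19 was not analysed here.

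Downstream of the receptor, differences were small. Of 10 receptor adaptors, 9 were measured and 0 had an unadjusted p under 0.05 in edgeR, and DESeq2 called 0 as DEGs, with log2 fold changes from -0.69 to 0.74 and a median of -0.08. All 20 of 20 genes of the PI3K-Akt-mTOR relay were measured, of which 3 were higher and 1 was lower at an unadjusted p under 0.05, no larger a share than the 22.6% of all genes. The median log2 fold change was 0.09. The largest of the 4 differences was that of Foxo3, a transcription factor that Akt keeps out of the nucleus, at 18.7, 16.4 and 10.8 CPM in young and at 25.9, 25.6 and 26.4 CPM in old libraries 1, 2 and 3. The old libraries were nearly alike and above all young ones, and Foxo3 rose in the DESeq2 Wald test (adjusted p = 0.0149; log2 fold change 0.76, SE 0.20 and adjusted p = 0.117 in edgeR). Pik3r2, a regulatory subunit gene of PI3K, had a log2 fold change of 0.52 (SE 0.19, edgeR adjusted p = 0.180). Rheb, the gene of the GTPase that activates mTOR, was at 117, 118 and 119 CPM in young and at 100, 83.4 and 83.0 CPM in old libraries 1, 2 and 3. The young libraries were within a narrow range and the old ones all below it, and Rheb fell in the DESeq2 Wald test (adjusted p = 0.0126; log2 fold change -0.41, SE 0.10 and adjusted p = 0.111 in edgeR).

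Igf2r also takes part in mannose 6-phosphate sorting, and the genes of that route were therefore listed. All 8 of 8 were measured, with log2 fold changes from -0.43 to 0.39 and a median of 0.17. Only Gga2, which encodes a clathrin adaptor that loads the receptor at the Golgi, had an unadjusted p under 0.05 (log2 fold change 0.38, SE 0.12, edgeR adjusted p = 0.162). The cation-dependent mannose 6-phosphate receptor gene M6pr was at 130 ± 7.54 CPM in young and 129 ± 5.87 CPM in old cells (SD, n = 3 each). Its log2 fold change was -0.02 (SE 0.09), where Igf2r had 0.55. Of all 57 listed pathway genes other than the 10 IGF genes, 51 were measured and 11 had an unadjusted p under 0.05 in edgeR, 8 higher and 3 lower, a share close to the 22.6% of all genes. edgeR called 0 of them as DEGs and DESeq2 called 4, Stc2 and Mmp2 upregulated and Pappa2 and Igf2bp3 downregulated. Over all genes, the share called was 0.00691% in edgeR and 5.68% of the genes with an adjusted p in DESeq2.

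**Figure D4:**
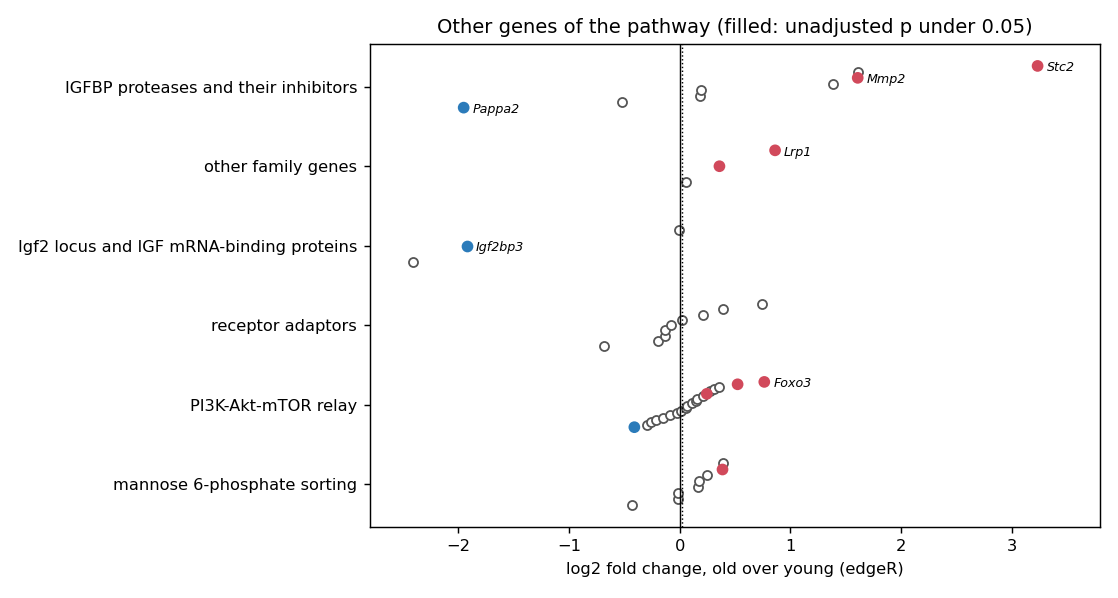
Log2 fold change of old over young in edgeR (horizontal axis) for the 51 measured pathway genes in 6 lists, each point a gene, filled where the unadjusted p was under 0.05 (red higher, blue lower in old); the dotted line is the median of all genes, 0.02. Points of the adaptor, PI3K-Akt-mTOR and sorting lists lie between -0.69 and 0.76, and those past 1 belong to the protease and mRNA-binding lists.

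Igfbp5, with the largest difference of the 9 genes, was compared by its pattern with 11435 genes that had a symbol and an average of at least 1 CPM. Over the 6 libraries, the Pearson correlation of log2(CPM + 0.5) was highest with Npat (0.996), Serinc3 (0.995) and Arhgap44 (0.990), and 34 genes were above 0.95. All these genes were read from the same 6 libraries, so such values describe the likeness only. Npat differed little in level, from 36.8 to 40.7 CPM over all libraries, while Serinc3 ranged from 325 CPM in old library 1 to 714 CPM in young library 2, the libraries where Igfbp5 was lowest and highest.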

How the data were processed

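RNA of cultured VSM cells from the SFA of 3 young and 3 old rats was sequenced as stranded, paired libraries. The authors deposited raw gene counts, whole numbers without normalization. Per the labels and the Methods, reads were trimmed with Trim Galore 0.6.7 (cutadapt 3.5, FastQC 0.11.9, MultiQC 1.27.1), aligned with STAR 2.7.10b to Rnor 6.0 and counted with featureCounts of Subread 2.0.8. The Methods name a RefSeq annotation, whereas genes carry Ensembl identifiers. How strand, multi-mapping reads and mates were set was not stated. Of counts from 1 to 19, 68.7% to 71.1% were even, and each library total exceeded the highest read number per sample in the paper. Thus 1 fragment may count as 2. Such settings can shift low counts such as those of Igf2, and genes with near-identical copies or an antisense neighbor are uncertain. The deposited table held genes with 10 or more counts in 3 or more libraries. 0 columns were left unused.

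Counts were fitted in R 4.3.3 with edgeR 4.0.16 (TMM, quasi-likelihood test, Benjamini-Hochberg adjustment over 14475 genes, no covariate), and SE is the absolute log2 fold change over the square root of F. DESeq2 1.42.0 (alpha 0.05, 292 genes with no adjusted p; the study used 1.46.0) and limma-voom (limma 3.58.1) were alternatives, as were other normalizations, a filter at an average of 1 CPM, a replicate block, an adjusted p of 0.1, no fold threshold and each library left out. Halved counts and DESeq2 with a library left out were added after seeing the data. Scripts were tested on simulated data. Samples were grouped by the age in their titles. No library repeated another (lowest chi-square per gene within a group 67.1).

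The 10 genes and all lists were chosen with earlier results of these data known. The text names all measured members, any gene of a list of up to 8 genes, the 3 largest differences at an unadjusted p under 0.05 in longer lists, abundant or telling markers and the 3 genes most like the member with the largest difference. Lum, Dcn, Pi16, Dpt, Cd34, Acta1 and S100b were named after their values had been seen. Promoters came from RefSeq (GRCr8, 10 of 10 genes matched), a later build than that of the counts. Transcript lengths and proteins were not used here.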

Additional observations from a re-analysis of the deposited data

How the results depend on the processing

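DEGs among the 9 IGF genes numbered 0 in edgeR, also with limma-voom, RLE size factors, library size only, halved counts, the 1 CPM filter or no fold threshold. They numbered 1 (Igfbp4) at an adjusted p under 0.1 and 2 (Igfbp4 and Igfbp5) in DESeq2, and between 0 and 4 with a library left out (edgeR 0 to 1, DESeq2 1 to 4). Over all genes, the DEGs numbered 1 in edgeR, 381 at an adjusted p under 0.1, 805 in DESeq2, and with a library left out 0 to 732 in edgeR (732 without old library 1, otherwise at most 5) and 551 to 1377 in DESeq2. IGF genes at an unadjusted p under 0.05 numbered 4 in edgeR and 5 in DESeq2 with all libraries. With a library left out they numbered 3 to 6 in edgeR and 4 to 7 in DESeq2. Pathway genes at this threshold numbered 11 in edgeR and 16 in DESeq2 with all libraries. With a library left out they numbered 8 to 16 in edgeR and 10 to 20 in DESeq2. Shares over all genes at this threshold were not counted with a library left out or with the replicate block. Igf2 was the only gene to change sign, between -0.28 and 0.80 with a library left out. Single IGF genes gave 170 values over 19 settings, sorted by sign and by an adjusted p of 0.05 with no fold threshold. Of these, 143 kept their direction and side of that p, 23 came under it and 4 changed sign. Not all of the 23 were DEGs. The cause of these differences was not tested.

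With the replicate number as a block (replicate block), 0 of the 9 were DEGs, 4 had an unadjusted p under 0.05 and 13 pathway genes did. The numbers were not taken as pairs, since libraries of the same number had correlated deviations of only 0.0638, 0.311 and 0.289, and young library 1 correlated best with old library 2 (0.346). At 3 rats per group, differences within the spread between libraries were not resolved. Among the 9 IGF genes, Igf2 had the fewest counts, at 4 to 30.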
